A study of Mus musculus with 24 samples.

Results

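The 9 genes described here encode factors of nonsense-mediated mRNA decay (NMD). They were taken from the expression table by symbol, namely Upf1, Upf2, Upf3a, Upf3b, Smg1, Smg5, Smg6, Smg8 and Smg9, out of 21553 genes with counts. The files carry 7 of them under these symbols, while Smg8 and Smg9 are listed as 1200011M11Rik and 1500002O20Rik and were matched by their Ensembl identifiers. All 9 passed the filter on low counts, among 16627 genes tested. The splicing table held 354 entries for them out of 295808.

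The samples were mouse cells derived from E14 embryonic stem cells (ESCs), either wild type (WT) or slow/slow, that is carrying on both alleles a knocked-in point mutation of Polr2a, which encodes the largest subunit of RNA polymerase II, that slows elongation. The slow/slow ESCs came from sequential targeting of both alleles, so genotype and cell line cannot be told apart. Poly(A)+ RNA was sequenced at 4 stages, which were ESCs in 2i medium, neural progenitor cells (NPCs) at day 7 of monolayer differentiation, cells purified on beads for polysialylated NCAM (PSA-NCAM+ cells) at day 10, and neurons replated at day 7 and grown for a further 14 days. The 8 groups each had 3 replicates from separate differentiations, and total counts ran from 32974432 to 104466886 per sample. For the stages after ESCs, WT cells had been plated at 10000 and slow/slow cells at 30000 per cm2. Genotype and plating density therefore cannot be told apart at those stages, and no density is given for the ESCs.

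NMD removes mRNAs on which translation ends too early, most often upstream of an exon junction complex left behind by splicing. The helicase Upf1 is recruited to the terminating ribosome, Upf2 and the paralogues Upf3a and Upf3b link it to the exon junction complex, and the kinase Smg1, held by its partners Smg8 and Smg9, phosphorylates it. Phosphorylated Upf1 then binds Smg6, an endonuclease, and Smg5, an adaptor to deadenylation and decapping. Several of these factors are encoded by mRNAs that are NMD substrates themselves, and UPF3B, which is X-linked, is mutated in forms of intellectual disability.

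Before the values, 3 stretches of coding sequence are shown, because the splicing differences described further on turn on them. They were read from the GENCODE vM21 transcripts after the exon had been found there by its own length and the lengths of its introns, and coordinates are given in GRCm38 with the mm9 coordinates of the files beside them. Each is written 5′ to 3′ along the transcript. In Upf1 (minus strand, chr8:70339982-70340099, in mm9 chr8:72863881-72863998) an exon of 85 bases has a second donor 33 bases downstream, and the capitals mark the 33 bases that only the longer form carries, followed by 20 bases of the next exon.
Upf1 exon with its longer donor form: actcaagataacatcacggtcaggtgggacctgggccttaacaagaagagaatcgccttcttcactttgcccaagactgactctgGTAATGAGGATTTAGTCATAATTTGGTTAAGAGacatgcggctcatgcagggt
In Upf3b (minus strand, chrX:37099066-37099104, in mm9 chrX:34639061-34639099) the capitals mark a cassette exon of 39 bases between 20 bases of each neighbouring exon.
Upf3b cassette exon: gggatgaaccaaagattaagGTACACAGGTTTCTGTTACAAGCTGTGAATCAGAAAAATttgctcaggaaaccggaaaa
In Smg1 (minus strand, chr7:118156860-118156969, in mm9 chr7:125300374-125300483) the capitals mark an exon of 110 bases, again with 20 bases on each side.
Smg1 exon: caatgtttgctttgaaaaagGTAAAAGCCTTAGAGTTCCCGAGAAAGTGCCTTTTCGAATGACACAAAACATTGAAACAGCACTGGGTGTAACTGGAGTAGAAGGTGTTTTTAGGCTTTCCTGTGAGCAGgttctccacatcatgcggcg
The stretches of Upf1 and Upf3b are multiples of 3 bases and both forms are annotated as coding, whereas the Smg1 exon is not a multiple of 3 and no annotated transcript lacks it.

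Cell identity and 2 chromosomes bear on the values that follow. The neuronal markers Map2, Rbfox3, Tubb3, Syn1 and Snap25 summed to 1980 to 2100 CPM (counts scaled to a common library size) in WT neurons and 1770 to 1990 in slow/slow neurons, against 28.7 to 49.6 in WT PSA-NCAM+ cells. Of these 5 genes 3 fell in slow/slow neurons, from means of 221 to 60.3 CPM for Syn1 (edgeR FDR 2.21e-08), from 208 to 60.2 CPM for Snap25 (edgeR FDR 7.53e-06) and from 36.6 to 19.7 CPM for Rbfox3 (edgeR FDR 0.00338). Of the markers of young neurons, Ncam1 was at 27.0, 20 and 21.9 CPM in WT PSA-NCAM+ cells, and the pluripotency genes Pou5f1, Nanog, Zfp42, Esrrb and Klf4 still summed to 1300 to 1780 CPM there. In each stage the genes of chromosome 8 were higher in slow/slow cells, by a median log2 change, from ESCs to neurons, of 0.45, 0.49, 0.46 and 0.44, while those of chromosome 15 were lower by a median of -0.60, -0.57, -0.56 and -0.08. Upf1 and Upf3a lie on chromosome 8. In PSA-NCAM+ cells same-numbered WT and slow/slow libraries deviated together, and replicate 1 stood high in both genotypes for Mov10 (145 CPM against 93.2 and 110 in WT, 133 against 45.8 and 51.3 in slow/slow cells).

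**Figure D1:**
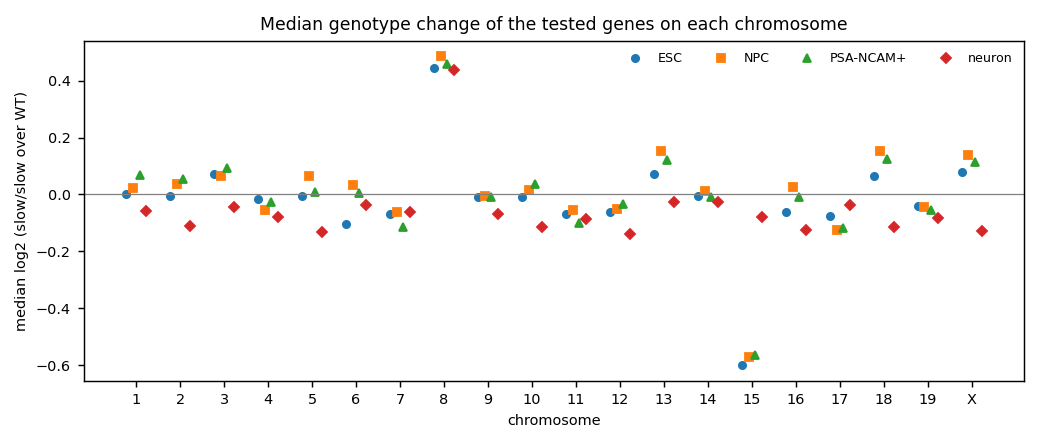
Median log2 ratio of slow/slow over WT expression (y axis) over the tested genes of each chromosome (x axis), with 1 symbol per stage. Chromosome 8, which carries Upf1 and Upf3a, lies between 0.437 and 0.486 at every stage, and chromosome 15 lies between -0.60 and -0.56 except in neurons.

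All 9 mRNAs were well measured in every sample, with at least 683 reads, the lowest count being that of Smg9 in a slow/slow neuron library. Per length, on the authors' group means in RPKM (reads per kilobase of transcript, scaled to library size), Smg5 had the highest levels, from 35.4 to 68.3, followed by Upf1, from 25.7 to 55.6, and Upf3a, from 20.1 to 33.1. By the mean over the 8 groups the kinase Smg1, at 9.85 to 12.3 RPKM, and the bridging factor Upf2, at 8.83 to 11.8 RPKM, were the lowest, although Smg9 was below both in slow/slow neurons at 9.17 and Upf3b in WT NPCs at 9.29. The remaining values are CPM scaled by the TMM method, which compare samples but not genes of different length.

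**Figure D2:**
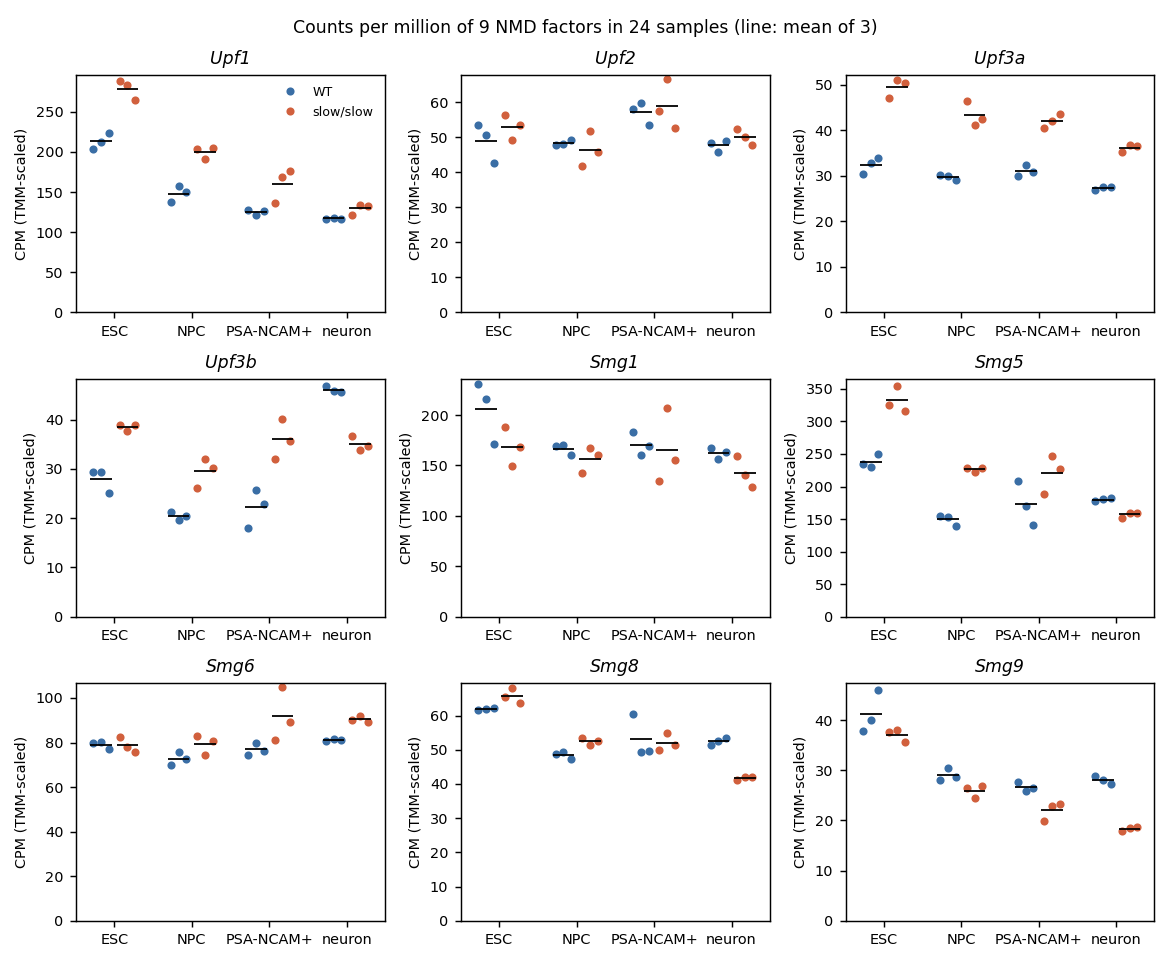
TMM-scaled CPM (y axis, from 0) of each factor in the 24 samples, by stage (x axis) and genotype, with the mean of 3 as a line. The means of Upf1, Upf3a, Upf3b and Smg5 are higher in slow/slow cells at the first 3 stages, with overlapping samples for Smg5 in PSA-NCAM+ cells, and Upf3b, Smg8 and Smg9 are lower in slow/slow neurons.

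The comparison of genotypes within a stage asks how mRNA levels of the decay machinery differ with the polymerase mutation. By edgeR's quasi-likelihood test over all genes, with a Benjamini-Hochberg false discovery rate (FDR) under 0.05, 4 of the 9 factors rose in slow/slow ESCs and 0 fell, where 40.4% of all tested genes were called in either direction. In NPCs the count was again 4 higher and 0 lower, against 56.7% of all genes, and in PSA-NCAM+ cells 5 rose and 1 fell, against 56.7%. In neurons 1 rose and 3 fell, against 51.9%. These shares are near those of all genes, so the number of factors called is not in itself a feature of the group. With the 6 libraries of a stage fitted on their own, the counts moved with those of all genes, to 8 of 9 against 76.3% in neurons and to 2 of 9 against 23.3% in PSA-NCAM+ cells. In ESCs 18.5% of all genes were called higher and 21.9% lower, and in NPCs 29.3% and 27.4%. In PSA-NCAM+ cells these shares were 28.6% and 28.1%, and in neurons 23.4% and 28.4%. The 9 factors had median log2 changes of 0.12, 0.13, 0.25 and -0.18 from the first stage to the last, beside -0.02, 0.01, -0.01 and -0.06 over all tested genes.

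**Figure D3:**
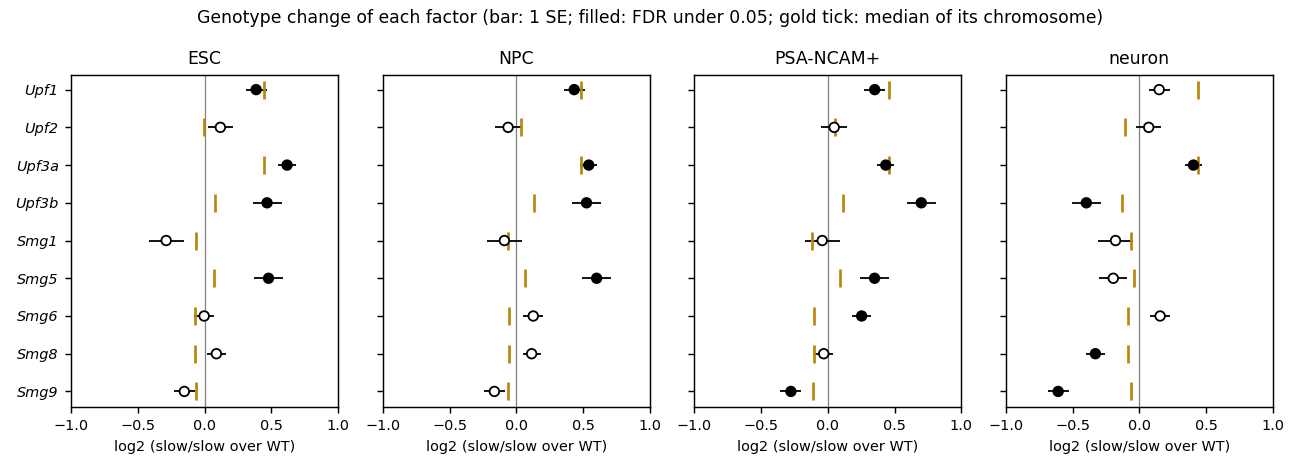
Log2 ratio of slow/slow over WT (x axis, bars 1 SE) for each factor (y axis) at each stage. Filled points passed an FDR of 0.05, and the gold ticks are the median of the other tested genes on the factor's chromosome. Upf1 and Upf3a sit near the median of chromosome 8 except Upf3a in ESCs, which is above it, and Upf1 in neurons, which is below it. Upf3b changes sign between the first 3 stages and neurons.

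Upf1, the helicase at the centre of the pathway, was at 204, 213 and 224 CPM in WT ESCs and at 288, 283 and 265 CPM in slow/slow ESCs. In NPCs it was at 137, 157 and 150 CPM in WT and at 204, 191 and 205 CPM in slow/slow cells. The genotypes were fully separated at both stages, with log2 changes of 0.38 ± 0.0793 (SE, n = 3 per group, edgeR FDR 0.000628) and 0.43 ± 0.0794 (edgeR FDR 0.000122). In PSA-NCAM+ cells Upf1 stood at 128, 122 and 127 CPM in WT against 136, 169 and 176 CPM in the mutant cells, which is a log2 change of 0.35 ± 0.0793 (edgeR FDR 0.000873). The other chromosome 8 genes changed by a median of 0.45, 0.49 and 0.46 in these stages, so that relative to its chromosome Upf1 was lower by 0.06, 0.05 and 0.11 on the log2 scale. In neurons the WT samples were at 117, 118 and 117 CPM and the slow/slow samples at 122, 134 and 133 CPM. That log2 change of 0.15 ± 0.0793 missed the threshold (edgeR FDR 0.126) and was -0.29 relative to the chromosome 8 median of 0.44. It was called under upper-quartile scaling (0.29, FDR 0.0029) and with the neuron libraries fitted on their own (0.222, FDR 0.000703). Upf1 overlaps Cers1 on the opposite strand, and the sources used here do not say if reads were counted by strand.

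Upf3a, the other factor on chromosome 8 and a paralogue of Upf3b with weaker decay activity, was at 30.3, 32.7 and 33.8 CPM in WT ESCs and at 47.1, 51.0 and 50.4 CPM in slow/slow ESCs. In neurons it was at 26.9, 27.6 and 27.5 CPM in WT and at 35.3, 36.7 and 36.5 CPM in slow/slow cells. It was the factor called higher at all 4 stages, with log2 changes of 0.62 ± 0.0648, 0.54 ± 0.0647, 0.43 ± 0.0644 and 0.40 ± 0.0646 in ESCs, NPCs, PSA-NCAM+ cells and neurons (edgeR FDR at most 2.87e-05). Relative to the median of the other genes on chromosome 8 the values were 0.17, 0.06, -0.02 and -0.04. The part of the chromosome-wide shift in the changes of Upf1 and Upf3a was not tested.

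Upf3b, the X-linked paralogue that binds the exon junction complex, rose at the first 3 stages and fell in neurons. Its values were 29.3, 29.4 and 25.1 CPM in WT ESCs and 39, 37.8 and 38.9 CPM in slow/slow ESCs. In NPCs they were 21.3, 19.6 and 20.5 CPM in WT and 26.2, 32.1 and 30.2 CPM in slow/slow cells. The slow/slow samples lay above the WT samples at both stages, as they did in PSA-NCAM+ cells, where WT samples were at 18.1, 25.7 and 22.8 CPM and slow/slow samples at 32.1, 40.2 and 35.7 CPM. The log2 changes were 0.47 ± 0.109 (edgeR FDR 0.00189), 0.53 ± 0.110 (edgeR FDR 0.000434) and 0.70 ± 0.109 (edgeR FDR 2.02e-05), beside medians of 0.08, 0.14 and 0.11 for the other tested genes of the X chromosome. In neurons the order was inverted, with 46.9, 45.8 and 45.7 CPM in WT and 36.6, 33.8 and 34.6 CPM in slow/slow cells. That log2 change was -0.40 ± 0.109 (edgeR FDR 0.00443), beside an X-chromosome median of -0.13, and it missed the threshold under upper-quartile scaling (log2 change -0.255, FDR 0.0715).

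Smg5, the adaptor that carries phosphorylated Upf1 to the deadenylation and decapping enzymes, followed Upf3b at the first stages. It was at 235, 230 and 250 CPM in WT ESCs and at 326, 355 and 316 CPM in slow/slow ESCs. In NPCs it was at 155, 153 and 140 CPM in WT and at 229, 223 and 228 CPM in slow/slow cells. Both comparisons separated the genotypes fully, with log2 changes of 0.48 ± 0.106 (edgeR FDR 0.00117) and 0.60 ± 0.106 (edgeR FDR 8.21e-05), and the other tested genes of chromosome 3 had medians of 0.07 and 0.07. In PSA-NCAM+ cells the groups overlapped, with 209, 170 and 141 CPM in WT and 189, 247 and 227 CPM in slow/slow cells, although the change of 0.35 ± 0.106 was called (edgeR FDR 0.00822). In neurons Smg5 was at 177, 181 and 182 CPM in WT and at 151, 160 and 160 CPM in the mutant cells, which is a log2 change of -0.20 ± 0.106 that missed the threshold (edgeR FDR 0.126) and was called with the neuron libraries fitted on their own (-0.122, FDR 0.0137).

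The partners of the Smg1 kinase fell in slow/slow neurons. Smg9 was at 28.8, 28.1 and 27.2 CPM in WT neurons and at 17.9, 18.4 and 18.7 CPM in slow/slow neurons, a log2 change of -0.61 ± 0.0794 (edgeR FDR 2.65e-06) and the largest fall among the 9 factors in any genotype comparison. Smg8 was at 51.5, 52.6 and 53.4 CPM in WT neurons and at 41.1, 42.1 and 42.1 CPM in slow/slow neurons, a log2 change of -0.33 ± 0.0684 (edgeR FDR 0.000442). Neither pair of groups overlapped, and the medians of the other genes on chromosomes 7 and 11 were -0.06 and -0.09. In PSA-NCAM+ cells Smg9 was at 27.7, 25.8 and 26.5 CPM in WT and at 19.9, 22.8 and 23.3 CPM in the mutant cells, which is a log2 change of -0.28 ± 0.0789 (edgeR FDR 0.00556). Smg8 had a log2 change of -0.03 at that stage (edgeR FDR 0.719).

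In the fit of all 24 samples the kinase Smg1 and the bridging factor Upf2 passed the test at no stage. The log2 changes of Smg1 were -0.29, -0.09, -0.04 and -0.18 from ESCs to neurons (edgeR FDR at least 0.086), although without WT ESC replicate 3 the ESC value was -0.395 and called (FDR 0.0281), and those of Upf2 lay between -0.06 and 0.12 (edgeR FDR at least 0.355). With the libraries of 1 stage fitted on their own, Smg1 was called in ESCs (-0.277, FDR 0.0467) and Upf2 in neurons (0.145, FDR 0.0127). The endonuclease Smg6 was called in PSA-NCAM+ cells, where WT samples were at 74.6, 79.8 and 76.3 CPM and slow/slow samples at 81.1, 105 and 89.0 CPM, a log2 change of 0.25 ± 0.0736 (edgeR FDR 0.00643). In neurons its log2 change of 0.16 missed the threshold (edgeR FDR 0.0835) and was called with those libraries fitted on their own (0.23, FDR 7.93e-05) and under upper-quartile scaling (0.298, FDR 0.00166). It overlaps Srr on the opposite strand. With the 6 PSA-NCAM+ libraries fitted on their own, the calls of Upf1, Smg5, Smg6 and Smg9 at that stage were lost (FDR 0.105, 0.206, 0.23 and 0.144), while those of Upf3a and Upf3b were kept. In the fit of all 24 samples, a replicate block whose effect was common to all stages left the PSA-NCAM+ count at 6. Such a block did not pair the libraries of that stage by themselves, so its count is not that of a paired test.

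Whether the genotype change itself differed between stages was tested as an interaction. Between ESCs and neurons it differed for 4 of the 9 factors, all toward a lower ratio in neurons. In that test 42.1% of all tested genes were called in either direction and 21.6% toward a lower ratio. The differences on the log2 scale were -0.87 ± 0.154 for Upf3b (edgeR FDR 0.000148), -0.67 ± 0.149 for Smg5 (edgeR FDR 0.00115), -0.42 ± 0.0967 for Smg8 (edgeR FDR 0.00168) and -0.46 ± 0.112 for Smg9 (edgeR FDR 0.00263). Upf3b thus went from a slow/slow to WT ratio of 1.38 in ESCs to 0.759 in neurons, and Smg5 from 1.39 to 0.873. Upf1 and Upf3a missed the threshold, with differences of -0.24 (edgeR FDR 0.0963) and -0.21 (edgeR FDR 0.0676). Between ESCs and NPCs edgeR called 0 of the 9 factors against 24.6% of all genes, and 0 had an unadjusted p under 0.05. Between ESCs and PSA-NCAM+ cells it called 0 against 27.1%, with 1 at an unadjusted p under 0.05, Smg6 (log2 difference 0.26, edgeR FDR 0.0746), which the Wald test of DESeq2 called. The comparisons share the ESC samples, and at the later stage of each the genotypes also differed in plating density.

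Markers of cell types moved with the genotype at each stage, ESCs included. In slow/slow ESCs 2 of 4 progenitor and 2 of 5 neuronal markers rose and 0 fell. The neuronal markers summed to 48.3 to 59.5 CPM in WT ESCs and 126 to 155 CPM in slow/slow ESCs. Of the 5 pluripotency genes 1 rose and 1 fell, and so did 1 and 1 of the 5 young-neuron markers. The pluripotency gene that rose was Zfp42 (log2 change 0.347), which lies on chromosome 8. In slow/slow NPCs 4 of 5 pluripotency genes fell, from a sum of 1890 to 1960 CPM to one of 1110 to 1230 CPM, and all 4 measured progenitor genes rose, from 37.5 to 38.9 CPM to 124 to 166 CPM. All 5 young-neuron markers and 3 of 5 neuronal markers rose there as well. In slow/slow PSA-NCAM+ cells 3 of 5 pluripotency genes fell, from 1300 to 1780 CPM to 678 to 705 CPM, while 4 of 4 progenitor, 4 of 5 young-neuron and 5 of 5 neuronal markers rose. Their part in the higher Upf1, Upf3a, Upf3b and Smg5 of these stages was not tested.

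In neurons 3 of 4 progenitor genes rose, among them Pax6 (6.57-fold) and Hes5 (7.02-fold), and the 3 neuronal markers named above fell. Of the young-neuron markers 3 of 5 fell in slow/slow neurons, and their summed level went from 2820 to 3070 CPM in WT to 1840 to 1930 CPM. The 5 endoderm and mesenchyme markers all rose, from a sum of 207 to 261 CPM to one of 491 to 518 CPM, with Afp at 0.0153, 0.0481 and 0 CPM in WT neurons. Of the 3 oligodendrocyte markers 2 fell, from a sum of 60.1 to 79.1 CPM to one of 6.52 to 7.52 CPM. Among 3 astrocyte markers 2 fell and 1 rose, and the sum went from 30.7 to 39.3 CPM to 9.55 to 12.2 CPM. The part of these marker changes in the lower Upf3b, Smg8 and Smg9 of slow/slow neurons was not tested. In bulk RNA fewer cells of a type and less RNA per cell cannot be told apart.

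The second axis of the design is differentiation, each later stage against ESCs of the same genotype. In WT cells 6 factors fell and 0 rose in NPCs, where 65.6% of all genes were called in either direction. In PSA-NCAM+ cells 5 fell and 1 rose, against 71.2%, and in neurons 6 fell and 1 rose, against 82.8%. By direction, 31.6, 33.6 and 39.4% of all genes were called lower at these WT stages, and 34, 37.6 and 43.4% higher. In slow/slow cells the counts were 6 lower and 0 higher in NPCs against 62.3%. They were 5 lower and 1 higher in PSA-NCAM+ cells against 73.4%, and 5 lower and 1 higher in neurons against 82.5%. Of all genes 28.4, 34.2 and 38.4% were called lower at these slow/slow stages, and 33.9, 39.2 and 44% higher. The medians of the 9 factors in WT cells were -0.35, -0.27 and -0.24 on the log2 scale at the 3 later stages, beside 0.03, 0.05 and 0.08 over all tested genes.

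Upf1 had the largest fall of the 9 from WT ESCs to WT neurons, while Smg5 fell further to the NPC stage (by 0.67 against 0.53 on the log2 scale). Its WT means fell from 214 ± 10.2 CPM (SD, n = 3) at the start to 148 ± 10 at the NPC stage, 126 ± 3.02 at the PSA-NCAM+ stage and 117 ± 0.473 at the end. Each stage lay below the one before it without overlap, and the log2 change from ESCs to neurons was -0.87 ± 0.0798 in WT (edgeR FDR 2.68e-09) and -1.10 ± 0.0802 in slow/slow cells (edgeR FDR 6.86e-11). Smg5 fell by 0.41 on the log2 scale in WT neurons and by 1.08 in slow/slow neurons, and Smg9 fell by 0.56 and by 1.02. The WT means of Smg9 after the ESC stage were 29.1 ± 1.16 CPM in NPCs, 28 ± 0.81 in neurons and 26.7 ± 0.967 in PSA-NCAM+ cells, and neighbours in this order overlapped.

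Upf3b was the factor that rose in WT neurons. In stage order its WT means were 27.9 ± 2.44, 20.5 ± 0.859, 22.2 ± 3.84 and 46.1 ± 0.684 CPM (SD, n = 3), and NPCs and PSA-NCAM+ cells were the neighbours whose samples overlapped. From ESCs to neurons the log2 change was 0.73 ± 0.109 (edgeR FDR 3.7e-06), beside a median of 0.62 for the other tested genes of the X chromosome. In slow/slow cells the means were 38.6 ± 0.642, 29.5 ± 3.01, 36.0 ± 4.08 and 35.0 ± 1.44 CPM in the same order. The change from ESCs to neurons was -0.14 ± 0.109 (edgeR FDR 0.238), beside an X-chromosome median of 0.50. The difference between these changes is the interaction given above. Smg6 rose in slow/slow PSA-NCAM+ cells (log2 change 0.22, edgeR FDR 0.0122) and slow/slow neurons (0.20, edgeR FDR 0.018), and Upf2 rose in WT PSA-NCAM+ cells (0.22, edgeR FDR 0.0436), a call lost without WT ESC replicate 2 or 3 or WT PSA-NCAM+ replicate 1 or 2 (FDR 0.0626, 0.273, 0.0864 and 0.14). The call of Smg6 was lost in slow/slow PSA-NCAM+ cells without replicate 2 of that stage (FDR 0.11), and in slow/slow neurons without slow/slow ESC replicate 2 or 3 or slow/slow neuron replicate 2 (FDR 0.055, 0.0833 and 0.0652). In WT cells Smg1 fell by 0.30 in NPCs (edgeR FDR 0.0478) and by 0.35 in neurons (edgeR FDR 0.0199), and these calls were lost without WT ESC replicate 1 (FDR 0.174 and 0.0856), the former also without WT ESC replicate 2 or any 1 WT NPC replicate. The fall of Upf3b in WT PSA-NCAM+ cells, by 0.33, was lost without replicate 1 of that stage (FDR 0.0796).

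The genes whose 8 group means most resembled those of a factor were found by the root mean square difference of centred log2 CPM. Snrnp40 was nearest to Upf1 at 0.0499, Cfdp1 to Upf3a at 0.0737, Elof1 to Upf3b at 0.106, Psme3 to Smg5 at 0.0731 and Cox5b to Smg9 at 0.086. Tox4 was nearest to Smg1 at 0.0696, Uso1 to Smg8 at 0.0657, Alg5 to Smg6 at 0.0669 and 4732418C07Rik to Upf2 at 0.064. Upf3b had the most distant nearest gene of the 9. Among the factors themselves Upf2 and Smg6 were closest to each other, at 0.128, and Upf1 and Smg5 were each other's nearest factor at 0.183.

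The members' splicing was read from PSI, the percentage of transcripts that include an exon, retain an intron or use a splice site. The table held 64 exons, 176 introns and 52 splice-site events of the 9 genes. An event was called where mean PSI differed by over 10 points (dPSI) with a posterior probability over 0.95 that the difference has its sign. Between genotypes 1 of 229 tested events was called in ESCs, and at the later stages 0 of 250, 0 of 245 and 0 of 246. Over all genes 0.199%, 0.886%, 0.266% and 0.887% of tested events were called in these comparisons. By limma on the same reads 0 member events were called at any stage. Over all genes limma without a replicate block called only 1, 43, 0 and 5 events, so these counts of 0 say little about the members. With dPSI over 5 points the member counts were 2, 1, 0 and 1, and the share over all genes was not computed. The shares called are low over all genes too, and the longer Upf1 donor form described further on is among the ESC events past 5 points.

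**Figure D4:**
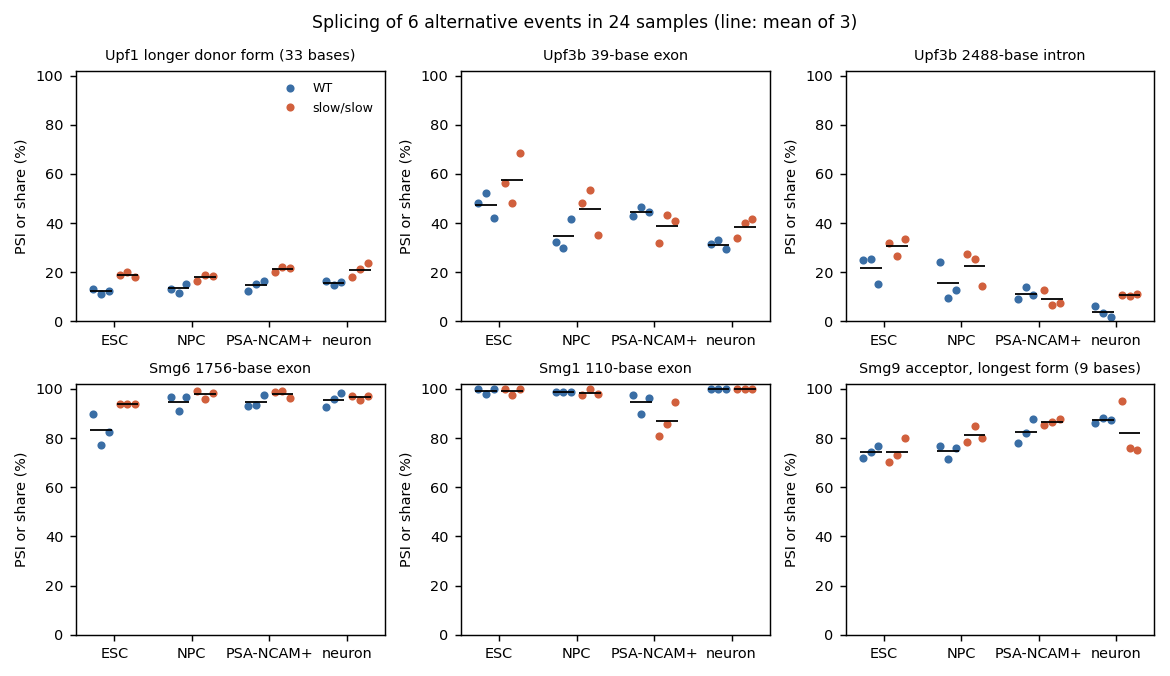
Percentage of transcripts (y axis, 0 to 100) with each of 6 alternative events in the 24 samples, by stage (x axis) and genotype, with the mean of 3 as a line. The longer Upf1 donor form is higher in slow/slow samples at each stage, and retention of the Upf3b intron is lowest in WT neurons at 1.7 to 6.3%.

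The genotype call in ESCs was an exon of 1756 bases in Smg6 (mm9 chr11:74742495-74744250), the second exon of the annotated coding transcript and not a multiple of 3 bases. Its PSI was 89.95, 77.3 and 82.5 in WT ESCs and 93.6, 93.8 and 94.0 in slow/slow ESCs. The dPSI was 10.6 points with a posterior probability of 0.955 (limma FDR 0.56), and the WT samples were the lower and more variable ones. Without WT ESC replicate 2 or 3 the call was lost, and dPSI ranged from 7.61 to 14.0 over the samples left out. The same exon was called between WT ESCs and each later WT stage, with dPSI of 11.5, 11.5 and 12.4 points (limma FDR 0.199, 0.245 and 0.0427, the last 0.0626 with a replicate block), since its PSI was 91.0 to 98.4 in the WT samples of the later stages. Without WT ESC replicate 2 these dPSI were 8.47, 8.50 and 9.43 points and each call was lost. The NPC and PSA-NCAM+ calls were also lost without WT ESC replicate 3, and the NPC call without WT NPC replicate 1 or 3.

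The longer donor form of Upf1 was singled out after its values had been seen. Its share was 13.3, 11.3 and 12.4% in WT ESCs and 18.8, 20.3 and 17.9% in slow/slow ESCs. In NPCs it was 13.3, 11.6 and 15.4% in WT and 16.6, 18.7 and 18.5% in slow/slow cells. The slow/slow samples lay above the WT samples at both stages, and the same was seen later. PSA-NCAM+ cells had 12.4, 15.4 and 16.6% in WT and 20.3, 22.3 and 21.6% in slow/slow cells, and neurons had 16.5, 14.8 and 16.0% in WT and 18.2, 21.2 and 23.7% in slow/slow cells. The differences of 6.66, 4.49, 6.61 and 5.31 points were all under the 10-point threshold, with posterior probabilities of 0.968, 0.864, 0.939 and 0.876 and at least 135 reads per sample. Of 220 member events tested at all stages it was the 1 whose genotypes did not overlap in the same direction at each stage, and 0.127% of all 97180 such events had this property. The 33 bases are those in capitals in the Upf1 line above, and the gene lies on chromosome 8.

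During differentiation 1 of 236 tested member events was called in WT NPCs, 1 of 234 in WT PSA-NCAM+ cells and 4 of 237 in WT neurons. Over all genes 0.779%, 0.54% and 1.82% of tested events were called in these comparisons. In slow/slow cells the counts were 0 of 234, 2 of 231 and 2 of 231, against 0.243%, 0.626% and 1.27%. Upf3b held the largest of these differences. Its 39-base exon, whose sequence is given above, had a PSI of 48.2, 52.2 and 42.2 in WT ESCs and of 31.4, 32.96 and 29.4 in WT neurons. The dPSI was -16.3 points with a posterior probability of 0.984, and limma did not call it (FDR 0.147, and 0.172 with a replicate block). In slow/slow cells it went from 56.2, 48.3 and 68.3 in ESCs to 33.8, 39.9 and 41.7 in neurons, a dPSI of -19.2 points with a posterior probability of 0.958. Limma did not call this one either (FDR 0.226, and 0.17 with the block), and it was lost without slow/slow ESC replicate 1 or slow/slow neuron replicate 1. Between genotypes the exon differed by 10.1, 11.1, -5.99 and 7.19 points from ESCs to neurons, and none of these differences was called (limma FDR 0.827, 0.602, 0.933 and 0.678).

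The Upf3b intron of 2488 bases (mm9 chrX:34637014-34639501) encloses that exon, so the 2 events share reads and are not independent. Its retention was 24.8, 25.5 and 15.2% in WT ESCs and 6.3, 3.4 and 1.7% in WT neurons, a dPSI of -18.0 points with a posterior probability of 0.995. In slow/slow cells it was 31.9, 26.7 and 33.3% in ESCs and 10.9, 10.2 and 11.1% in neurons, a dPSI of -19.9 points with a posterior probability of 0.993. The ESC and neuron samples did not overlap in either genotype, and the calls held with each replicate left out. By limma they had an FDR of 0.0122 in WT and 0.0497 in slow/slow cells, and of 0.0164 and 0.0652 with a replicate block. In slow/slow PSA-NCAM+ cells retention was 12.6, 6.7 and 7.5%, a dPSI of -21.7 points against ESCs, while the limma FDR was 0.0878. With 30 reads in the shallowest sample, these values are less precise than those of the Upf1 donor.

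In Smg9 an acceptor with 3 alternative positions (mm9 chr7:25190707-25190870) differed between WT ESCs and WT neurons. The form that is 9 bases longer took 71.9, 74.4 and 76.9% in WT ESCs and 86.2, 88.0 and 87.4% in WT neurons, a dPSI of 12.8 points with a posterior probability of 0.983 that limma did not call (FDR 0.085, and 0.114 with a replicate block). In slow/slow neurons the samples were far apart, at 95.0, 75.8 and 75.2%. The Smg1 exon of 110 bases was fully or nearly fully included at 3 stages, with a PSI of at least 97.6 outside PSA-NCAM+ cells. In PSA-NCAM+ cells its PSI was 97.4, 89.6 and 96.4 in WT and 80.9, 85.5 and 94.5 in slow/slow cells. Against slow/slow ESCs the dPSI was -12.3 points with a posterior probability of 0.985, a call lost without slow/slow PSA-NCAM+ replicate 1, where dPSI was -9.23. Its limma FDR was 0.0569, and 0.028 with the replicate block. No event of Upf1, Upf2, Upf3a, Smg5 or Smg8 was called in any of the 10 splicing comparisons.

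The rest of the pathway was read from lists, and the changes below are log2 ratios of slow/slow over WT. Among 12 genes reported as natural NMD targets 9 were tested, and Gas5, Snhg1 and Snhg12 were not analysed here. In ESCs 7 of the 9 fell and 0 rose, in NPCs 5 fell, in PSA-NCAM+ cells 4 fell, and in neurons 1 fell and 1 rose. Over all genes 21.9, 27.4, 28.1 and 28.4% were called lower at these stages. Several of these targets are also induced by cell stress. Ddit3, a transcription factor of the unfolded protein response, was at 51.3, 47.6 and 60.0 CPM in WT ESCs and at 13.2, 14.0 and 11.4 CPM in slow/slow ESCs, a change of -2.04 ± 0.355 (edgeR FDR 0.000116). Gadd45a, a growth arrest gene whose mRNA is a well known NMD substrate, was at 104, 97.7 and 97.0 CPM in WT NPCs and at 50.1, 44.8 and 47.8 CPM in slow/slow NPCs, a change of -1.07 ± 0.165 (edgeR FDR 1.97e-05). Gadd45b changed by -2.20 ± 0.561 in NPCs (edgeR FDR 0.00243). Atf4, the stress-response factor upstream of Ddit3, changed by -0.77 in ESCs (edgeR FDR 0.000195) and lies on chromosome 15, whose median was -0.60. The genotype change differed between neurons and ESCs for 5 of the 9 targets, all toward a higher ratio in neurons, where 20.5% of all genes were called in that direction, with 1.27 ± 0.243 for Gadd45a (edgeR FDR 0.000292) and 1.31 ± 0.485 for Ddit3 (edgeR FDR 0.0355).

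**Figure D5:**
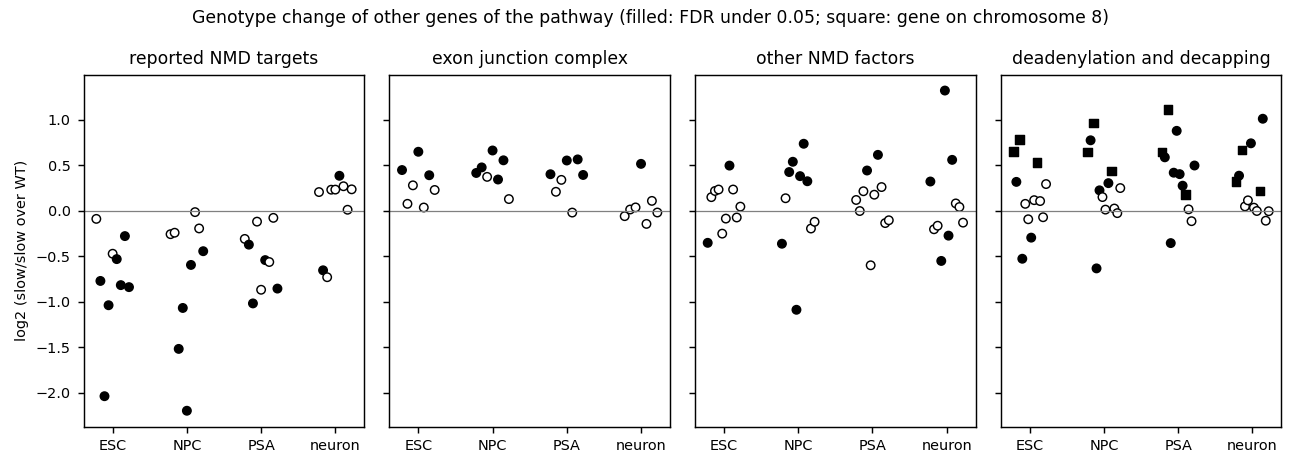
Log2 ratio of slow/slow over WT (y axis) by stage (x axis) for reported NMD targets and 3 groups of decay factors. Each point is a gene, filled where it passed an FDR of 0.05 and square where it lies on chromosome 8. Of the 9 targets 7 are called lower in ESCs and 1 in neurons.

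The 7 genes of the exon junction complex and its partners had 3, 5, 4 and 1 members called higher from ESCs to neurons and 0 called lower, where 18.5, 29.3, 28.6 and 23.4% of all genes were called higher and 21.9, 27.4, 28.1 and 28.4% lower, with medians of 0.28, 0.41, 0.39 and 0.01. Casc3, a core subunit, changed by 0.45, 0.41, 0.40 and -0.06 and was the 1 gene of the list whose change differed between neurons and ESCs (-0.51 ± 0.0851, edgeR FDR 7.92e-05). Beside the same shares, of 10 other NMD factors 1, 5, 2 and 3 were higher and 1, 2, 0 and 2 lower. The helicase gene Mov10 had the largest values, with a change of -1.09 in NPCs and of 1.32 in neurons, where it was at 9.78, 11 and 12.8 CPM in WT and at 27.3, 29.0 and 27.4 CPM in slow/slow cells (edgeR FDR 0.000352). Of 12 deadenylation and decapping genes 4, 6, 9 and 6 were higher and 2, 1, 1 and 0 lower. Pan2, a deadenylase subunit, changed by 1.01 ± 0.0686 in neurons, from 43.0, 43.4 and 43.9 CPM to 88.2, 88.7 and 84.7 CPM (edgeR FDR 5.62e-10). Cnot7, a deadenylase on chromosome 8, changed by 1.11 ± 0.0722 in PSA-NCAM+ cells (edgeR FDR 2.77e-10), and Cnot1 and Edc4 of the same list lie on chromosome 8 too.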

How the data were processed

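RNA had been libraried from poly(A)+ RNA with a stranded kit and sequenced as paired 75-base reads. The authors mapped reads to mm9 and used vast-tools, and the submitters' processing notes also name bcl2fastq 2.17.1.14 and edgeR. The authors deposited raw counts per gene, group-mean RPKM, PSI as a percent per event and sample with quality scores and corrected reads, and the log2 fold changes and FDR (adjusted p-values) of their own edgeR comparison, which were not used. A table of group PSI was not used either. 0 columns of per-sample values were left out, and no 2 libraries held identical values.

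Counts were tested with edgeR 4.0.16 (R 4.3.3) as deposited, after filterByExpr and TMM scaling, in 1 quasi-likelihood model of 8 groups and 24 samples (16 residual degrees of freedom, common biological coefficient of variation 0.164). p-values were adjusted over 16627 genes. For splicing, events passed the vast-tools coverage filters (at least 15 reads for introns) and balance filters in all 6 samples compared. Each replicate's reads for and against inclusion gave a beta posterior (flat prior). Those of a group were pooled and refitted as 1 beta distribution. Splice-site entries were counted once per event. Both tests were checked on simulated data. The planted splicing changes lay in exons of intermediate PSI and were larger than any member change called here. Introns, splice sites and smaller changes were therefore not covered. Replicates were separate differentiations. The edgeR p-values reflect the spread between replicates as estimated for each gene over all 8 groups, not over the compared groups alone.

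The members and gene lists were chosen with earlier results of these data known. All 9 members were named, with their called splicing events (at most 12, by dPSI). Other pathway genes were named where they passed the FDR and 2-fold at some stage, up to 3 per list, and Atf4, Casc3, Cnot1 and Edc4 were chosen after their values were seen, as was the Upf1 donor. The nearest gene was named for each member. Same-numbered libraries were taken as paired where all 3 correlations of their deviations from the group means exceeded 0.1, which held for PSA-NCAM+ cells alone (0.54, 0.455 and 0.401). Alternatives were DESeq2 1.42.0 (size factors and Wald test), upper-quartile scaling, no count filter, fits of the compared groups alone, a replicate block, a 1.5-fold minimum, other splicing thresholds, limma 3.58.1 on logit reads and leaving out each replicate. Exon sequences were read from GENCODE vM21 transcripts.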

Additional observations from a re-analysis of the deposited data

Results flagged for a closer look

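For 4 factors the slow/slow to WT change differed between neurons and ESCs by a test of the difference itself, the interaction of genotype and stage in edgeR. The differences were -0.87 for Upf3b, -0.67 for Smg5, -0.42 for Smg8 and -0.46 for Smg9 on the log2 scale, each toward a lower ratio in neurons. Of all tested genes 42.1% were called in this interaction in either direction, so the number of factors called is near that background. Toward a lower ratio, the direction of all 4 factors, 21.6% of all tested genes were called. These 4 calls held in all 12 fits that left out 1 of the libraries compared. With 3 samples per group no test for single outlying samples was made.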

How the results depend on the processing

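The counts of factors called by genotype ranged, with 1 replicate left out, from 4 to 5 in ESCs, 4 to 4 in NPCs, 6 to 6 in PSA-NCAM+ cells and 4 to 4 in neurons. For differentiation they ranged from 5 to 6, 4 to 6 and 6 to 7 in WT cells and from 6 to 7, 5 to 7 and 5 to 7 in slow/slow cells (NPCs, PSA-NCAM+ cells, neurons), and for the interactions from 0 to 0, 0 to 1 and 4 to 4. Splicing calls ranged from 0 to 1 at each stage between genotypes, from 0 to 1, 0 to 2 and 3 to 4 in WT cells and from 0 to 0, 2 to 5 and 1 to 2 in slow/slow cells. With a minimum change of 1.5-fold, 1 factor was called by genotype at each of the 4 stages, 1, 2 and 2 in WT NPCs, PSA-NCAM+ cells and neurons, 0 and 3 in slow/slow NPCs and PSA-NCAM+ cells, and 2 in the neuron interaction, a rule that asks for larger changes. The share over all genes under that rule was not computed. With only the compared groups fitted, the counts were 2 between genotypes in PSA-NCAM+ cells, 8 in neurons and 3 in WT PSA-NCAM+ cells. Of all genes 23.3%, 76.3% and 66.8% were called in these fits, and the cause of the different counts was not tested. The Wald test of DESeq2 called 1 factor in the PSA-NCAM+ interaction.

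With dPSI over 15 points, the splicing counts were 0 between genotypes in ESCs, 0, 0 and 2 in WT NPCs, PSA-NCAM+ cells and neurons, and 1 in slow/slow PSA-NCAM+ cells. With dPSI over 5 points they were 2, 1 and 1 between genotypes in ESCs, NPCs and neurons, 2, 3 and 7 in WT cells and 5 in slow/slow PSA-NCAM+ cells. By limma without a replicate block they were 0 between genotypes in ESCs, 0, 0 and 2 in WT cells, and 0 and 1 in slow/slow PSA-NCAM+ cells and neurons. By limma with the replicate block they were 0 in ESCs, 0, 0 and 1 in WT cells, and 1 and 0 in slow/slow PSA-NCAM+ cells and neurons. In the expression fits the replicate block left 4, 4, 6 and 4 factors called by genotype, and 5 in WT NPCs, where Smg1 was lost (FDR 0.0505). Its effect was shared by all stages, so it did not model the pairing seen in PSA-NCAM+ cells alone.

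Relative to the chromosome median, the log2 change of Upf1 turned to -0.0623 in ESCs, -0.0538 in NPCs and -0.106 in PSA-NCAM+ cells, and that of Upf3a to -0.0235 in PSA-NCAM+ cells and -0.0353 in neurons. The other changes of sign were of values not called. Smg6 in ESCs was 0.000327 without the count filter and 0.0102 with only the compared groups, and Upf2 in PSA-NCAM+ cells was -0.0167 under upper-quartile scaling. With 1 replicate left out, the values ranged from -0.0234 to 0.037 for Smg6 in ESCs and from -0.136 to 0.0184 for Upf2 in NPCs. In PSA-NCAM+ cells they ranged from -0.021 to 0.157 for Upf2, from -0.208 to 0.11 for Smg1 and from -0.0542 to 0.0734 for Smg8. Upper-quartile scaling moved the median of all genes by 0.143 in the neuron genotype comparison, by -0.193 between WT ESCs and neurons and by 0.163 in the neuron interaction. With 3 replicates, small changes and introns near 30 reads were the least precise values.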
